A study of Mus musculus with 8 samples.

Results

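Iron and copper handling was examined through 10 genes, out of 31406 in the count table, in activated mouse microglia treated with ligands of adenosine receptors. They are Tfrc, Slc11a2, Slc11a1 and Steap4 (uptake), Fth1 (storage), Slc40a1, Cp and Lcn2 (export and carriers), and Mt1 and Mt2 (metal binding). The genes were selected by name for these roles, with earlier results of these data known. In those results, Steap4 and Cp stood out between the A2A antagonist and control, a contrast that was not analysed here. The 8 libraries were made from primary-cultured wild-type C57/BL6 striatal microglia from pups a few days old. Microglia are the resident immune cells of the brain. The cells were cultured for 15 days and activated for 48 h with 0.01% lipopolysaccharide (LPS, a bacterial cell wall component) and 0.002% interferon-γ, which the methods name as the human protein. Ligands were given at 3 times, after 24 h, 32 h and 40 h of activation. By their titles, 4 libraries received SCH 58261, an antagonist of the adenosine A2A receptor (A2A antagonist group). The other 4 received SCH 58261 together with 200 nM 2-Cl-IB-MECA, an agonist of the adenosine A3 receptor (dual group). Cells activated without ligand were not analysed here. The treatment field of the labels names the A3 agonist for the opposite group, so the direction of every difference below rests on the titles, which the column names of the deposited counts follow. Nothing states that the libraries of a group came from separate cultures or animals, so the p-values measure the spread between these libraries, which may be technical. The comparison asks whether adding the A3 agonist to A2A blockade changed the transcripts of these genes.

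Iron enters most cells as transferrin bound to the transferrin receptor (Tfrc). In the endosome a reductase of the STEAP family reduces it, and the divalent metal transporter Slc11a2 moves it into the cytosol. Iron that is not used is stored in ferritin, and any surplus leaves through ferroportin (Slc40a1), with the copper enzyme ceruloplasmin (Cp) oxidising it outside the cell. During inflammation glia are known to retain iron and to secrete lipocalin 2 (Lcn2), which binds the siderophores that bacteria use to capture iron. Metallothioneins (Mt1, Mt2) are small cysteine-rich proteins that bind zinc and copper.

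Part of this network is controlled through the messenger RNA itself. Iron regulatory proteins bind the iron-responsive element (IRE), a stem with a loop of 6 bases. Bound near the start of a transcript they hold back its translation, and bound in the 3′ UTR they protect it from decay. The transcripts of GENCODE mouse release 21 (GRCm38) were searched, on the strand of the gene, for a word of 17 bases: a C, 5 bases, the loop CAGTGN with a last base other than G, and 5 bases that all pair with the first 5 (G:T pairs allowed). The word was found in the UTRs of 3 of the 10 genes, and in those of 123 of 21877 protein-coding genes (0.562%). The matches are shown because iron is known to act on these transcripts through them, beside that of Ftl1, the light chain that forms ferritin with Fth1. Each is printed 5′ to 3′ on the strand of its gene with 5 more bases on either side, and the capitals mark the loop.
Fth1, 5′ UTR, chr19:9982733-9982759, plus strand: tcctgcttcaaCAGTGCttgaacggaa
Ftl1, 5′ UTR, chr7:45459780-45459806, minus strand: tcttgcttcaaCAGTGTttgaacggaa
Slc40a1, 5′ UTR, chr1:45925466-45925492, minus strand: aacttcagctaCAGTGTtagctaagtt
Tfrc, 3′ UTR, copy 1, chr16:32631220-32631246, plus strand: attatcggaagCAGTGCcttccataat
Tfrc, 3′ UTR, copy 2, chr16:32631599-32631625, plus strand: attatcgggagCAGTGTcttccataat
Tfrc, 3′ UTR, copy 3, chr16:32631664-32631690, plus strand: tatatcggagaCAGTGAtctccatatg
Tfrc, 3′ UTR, copy 4, chr16:32631711-32631737, plus strand: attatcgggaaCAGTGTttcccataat
Fth1 and Slc40a1 thus hold the word near the start of the transcript and Tfrc holds 4 copies in its 3′ UTR. The word is strict and misses elements with other stems: Slc11a2 is known for an element in its 3′ UTR and gave no match. A match is a description of these letters, and the binding of the regulatory proteins was not measured.

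The total count per library was 32630602 to 45878639, and 26155 to 26809 genes were detected in each. The 10 genes together took 2.34 to 2.52% of the counts in the A2A antagonist libraries and 2.30 to 2.37% in the dual libraries. All 12 microglial markers looked for were detected, but so were the markers of other brain cells, and no marker that the table holds was at 0 in any library (1 of 5 endothelial markers was not analysed here). In FPKM, which scales read pairs to gene length and library size, the microglial genes C1qa and Itgam stood at 420 and 25.1, although 68.7% of the exonic bases of Itgam are shared with another gene on the same strand. The astrocyte genes Gfap and Slc1a3 stood at 390 and 218, and the fibroblast gene Col1a1 at 58.3. The study's methods report a high purity of microglia by labelling with anti-CD11b antibodies. Transcripts of other brain cells were nevertheless detected, so the levels below are read as those of a mixed culture. In such bulk samples, fewer cells of a type and less RNA per cell cannot be told apart.

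Per gene length, the storage and carrier genes were the most abundant of the 10. Fth1 had a mean of 10634 FPKM over the 8 libraries, rank 2 among the 31406 genes, and Lcn2 had 2681 FPKM (rank 6). Cp followed with 545 FPKM (rank 40), then Steap4 with 486 (rank 47) and Mt1 with 348 (rank 74). The uptake genes Slc11a1 (30.2 FPKM), Slc11a2 (24.2 FPKM) and Tfrc (8.78 FPKM) were lower. Mt2 (4.62 FPKM) and the exporter Slc40a1 (0.360 FPKM, rank 16619) were the lowest, the level of Mt2 being uncertain because 73.5% of its exonic bases overlap an antisense gene. The deposited length of Fth1 is 866 bases, while the exons of GENCODE span 3469 bases. The deposited coordinates of Fth1 enclose fewer bases than that, so its reads were not counted over the longer model. An FPKM for the longer model therefore cannot be derived from these counts. The place of Fth1 above Lcn2 rests on the deposited length and was not tested with another. For each neighbouring pair in the order by deposited FPKM, the ranges over the 8 libraries did not overlap. The closest pair was Cp and Steap4, at 523 to 582 FPKM and 441 to 514 FPKM, a ratio of the means of 1.12. The widest gaps lay between Mt2 and Slc40a1 (12.8-fold) and between Mt1 and Slc11a1 (11.5-fold). Fth1, Lcn2, Cp and Steap4 accounted for 96.8% of the reads of the 10 genes. Cp and Slc40a1, the transporter it is known to work with, thus stood far apart in level.

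**Figure D1:**
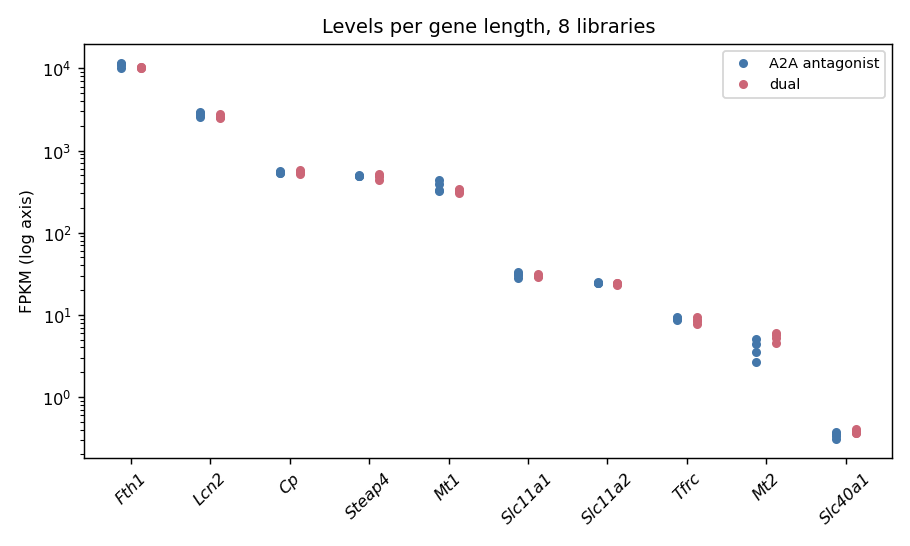
Level of each of the 10 genes in FPKM on a log axis, 1 point per library, with the A2A antagonist libraries in blue and the dual libraries in red. Fth1 lies highest with a mean of 10634 FPKM and Slc40a1 lowest with 0.360 FPKM, and for each gene the colours lie at nearly the same height.

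When the A3 agonist was added to the A2A antagonist, the fitted differences of the 10 genes were small. They ran from -0.18 (Mt1) to 0.46 (Mt2) on the log2 scale, and the next largest were those of Slc40a1 (0.16), Fth1 (-0.11) and Lcn2 (-0.10). In edgeR's quasi-likelihood test, with Benjamini-Hochberg adjustment over the 18756 genes tested, 0 of the 10 genes were called at an adjusted p below 0.05. Over all genes, 39 (0.208%) were called, with 0.048% called higher and 0.16% called lower in the dual group. At an unadjusted p below 0.05, 4 of the 10 genes passed against 12.8% of all genes. These were Fth1, Mt1 and Lcn2, lower in the dual group (6.81% of all genes passed in that direction), and Mt2, higher (5.98%). Among the 59 genes whose mean log2 CPM was 10 or more, where Fth1, Lcn2, Cp and Steap4 stand, 18 (30.5%) passed that unadjusted threshold. The fitted difference was below 0 for 7 of the 10 genes and for 48.5% of all genes. Their median log2 fold change (dual minus A2A antagonist) was -0.04, beside 0.0038 for all genes. For 0 of the 10 did the libraries of the groups fall apart without overlap, which 7.42% of all genes did. The 95% interval of the difference lay within 1.5-fold in either direction for 9 of the 10 genes, the exception being Mt2. A difference that misses the threshold does not show that the groups were alike, and these intervals give the sizes that the 4 libraries per group allow.

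The genes of iron uptake differed little between the groups. Values are CPM, the share of a library's reads that fell on a gene, scaled with edgeR's TMM factors (scaled CPM) and given for replicates 1 to 4. Tfrc (ENSMUSG00000022797, chr16:32608920-32632794, plus strand), the receptor for transferrin, had 58.5, 55.0, 56.4 and 53.7 scaled CPM with the A2A antagonist and 48.8, 54.1, 52.2 and 59.2 with both ligands. Its lowest and its highest library were both in the dual group, so the dual libraries enclosed all of the A2A antagonist ones. The log2 fold change was -0.06 (95% interval -0.17 to 0.05, adjusted p = 0.677).

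Slc11a2 (ENSMUSG00000023030, chr15:100387898-100425072, minus strand), which carries ferrous iron across the endosomal membrane, was the steadiest of the transporters. It stood at 157, 156, 161 and 154 scaled CPM in the A2A antagonist libraries and at 149, 158, 149 and 156 in the dual libraries. The difference was -0.04 on the log2 scale (95% interval -0.11 to 0.03, adjusted p = 0.692). Of its exonic bases, 6.33% lie opposite Gm5475, and whether the counting used the strand is not stated in the sources used here.

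Slc11a1 (ENSMUSG00000026177, chr1:74375195-74386062, plus strand) is the related transporter of phagosomes, which withdraws metals from engulfed microbes. In the A2A antagonist group it had 105, 115, 116 and 122 scaled CPM, and in the dual group 110, 116, 107 and 111. The lowest and the highest library were both treated with the A2A antagonist alone, and the log2 fold change was -0.05 (95% interval -0.14 to 0.05, adjusted p = 0.718).

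Steap4 (ENSMUSG00000012428, chr5:7960457-7982213, plus strand) is a metalloreductase that reduces both iron and copper. Its A2A antagonist libraries were tightly grouped at 1586, 1549, 1539 and 1548 scaled CPM, a mean ± SD of 1555.5 ± 20.7 (n = 4). The dual libraries spread further, at 1405, 1544, 1547 and 1637, a mean ± SD of 1533 ± 96.0 (n = 4). Replicate 1 was the lowest and replicate 4 the highest of all 8, and both belong to the dual group. The fitted difference was -0.02 (SE 0.04, 95% interval -0.10 to 0.06, adjusted p = 0.875). It became 0.02 without replicate 1 of the dual group, so no direction can be given for Steap4.

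Iron storage showed the smallest unadjusted p of the 10 genes. Fth1 (ENSMUSG00000024661, chr19:9982703-9985092, plus strand) encodes ferritin heavy chain, the subunit that oxidises iron for storage. The A2A antagonist libraries held 8837, 10172, 9845 and 9650 scaled CPM, and the dual libraries 9086, 8814, 8949 and 8864. All 4 dual libraries lay below the mean of the A2A antagonist group and close together, at 8928 ± 119 against 9626 ± 568 (mean ± SD, n = 4 each). Replicate 1 of the A2A antagonist group fell among the dual libraries, and the other 3 lay above them. The log2 fold change was -0.11 (SE 0.04, 95% interval -0.18 to -0.03), or 7.25% lower in the dual group, and the adjusted p was 0.196. With A2A antagonist replicate 1 left out, the log2 fold change of Fth1 was -0.15 with an adjusted p of 0.0207, in a fit that called 0.902% of all genes. Without the filter on low counts Fth1 was also called (adjusted p = 0.0174), in a fit that called 1.17% of all genes. DESeq2 called 4.7% of the 8877 genes it adjusted, and its adjusted p for Fth1 was 0.0699. The light chain gene Ftl1 had 437 FPKM and a log2 fold change of -0.02 (SE 0.04, adjusted p = 0.897), with 26.5% of its exonic bases opposite another gene.

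**Figure D2:**
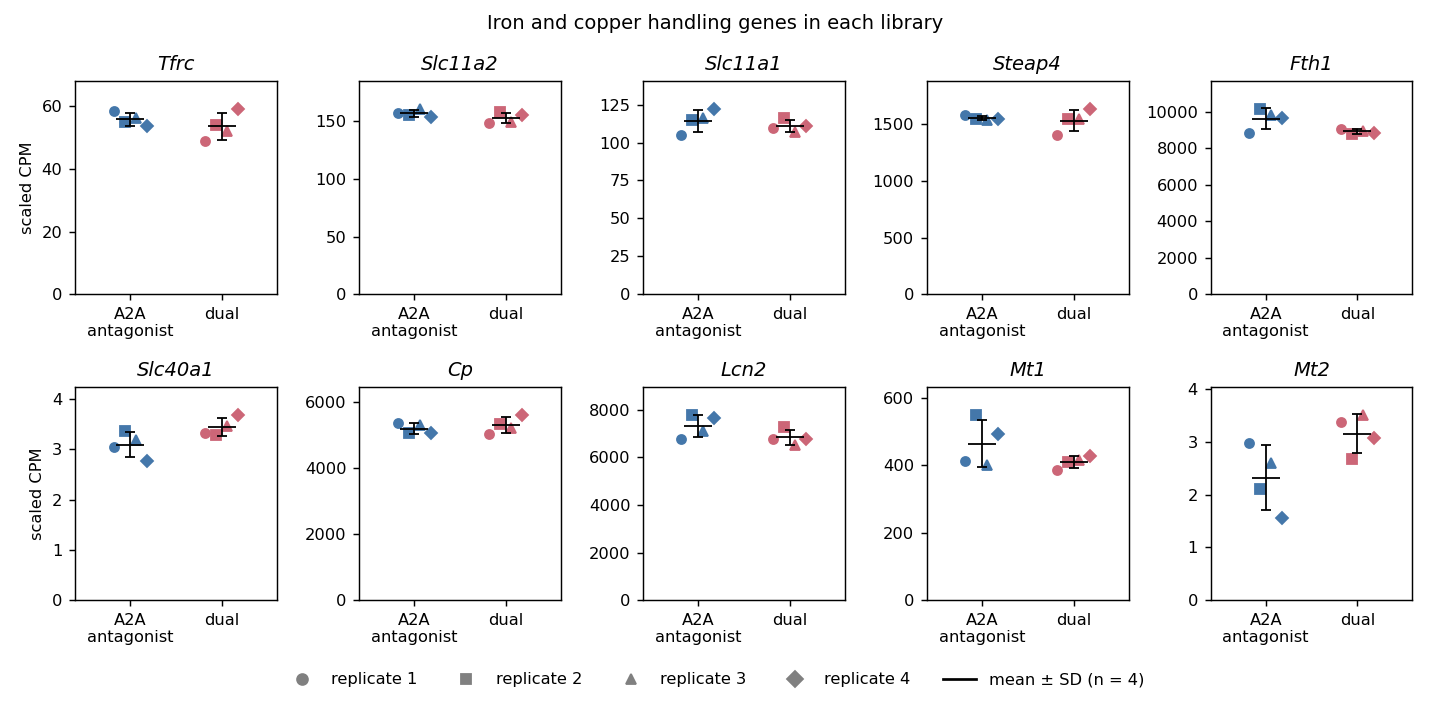
Scaled CPM of the 10 genes in each library, with each panel starting at 0, 1 symbol per replicate number, and bars for the mean ± SD of 4 libraries. The points of the groups overlap in every panel, and the 4 dual libraries of Fth1, Lcn2 and Mt1 lie below the mean of the A2A antagonist group.

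The exporter and the carriers did not move in 1 direction. Slc40a1 (ENSMUSG00000025993, chr1:45908068-45926523, minus strand), the only known exporter of cellular iron, had 3.03, 3.36, 3.18 and 2.77 scaled CPM in the A2A antagonist libraries and 3.31, 3.29, 3.46 and 3.68 in the dual libraries. All 4 dual libraries lay above the mean of the A2A antagonist group, and 2 of them lay below its highest library. These values rest on 108 to 163 reads per library, and the log2 fold change of 0.16 had a wide interval (95% interval -0.09 to 0.40, adjusted p = 0.623).

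Cp (ENSMUSG00000003617, chr3:19957054-20009145, plus strand), the copper-containing ferroxidase, had 5368, 5064, 5316 and 5077 scaled CPM with the A2A antagonist and 5049, 5342, 5222 and 5620 with both ligands. The lowest and the highest library both belonged to the dual group. At 164720 to 249145 reads per library the depth was high, and the difference was 0.03 on the log2 scale (SE 0.03, 95% interval -0.04 to 0.10, adjusted p = 0.794). As for Steap4, 1 library set its sign, since the value became -0.00076 without replicate 4 of the dual group.

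Lcn2 (ENSMUSG00000026822, chr2:32384633-32388252, minus strand) is an acute-phase protein that inflamed glia secrete. Its libraries held 6767, 7786, 7127 and 7641 scaled CPM under the A2A antagonist and 6770, 7288, 6523 and 6782 under both ligands. The 4 dual libraries lay below the mean of the other group, but replicate 2 of the dual group exceeded 2 of the A2A antagonist libraries. The log2 fold change was -0.10 (SE 0.04, 95% interval -0.19 to -0.01, adjusted p = 0.319), and over all alternatives the adjusted p ran from 0.0637 to 0.636.

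The metallothioneins lay next to each other on the genome but differed in level and in the sign of their fitted difference. Mt1 (ENSMUSG00000031765, chr8:94179082-94180327, plus strand) had 414, 549, 401 and 492 scaled CPM in the A2A antagonist libraries and 386, 409, 415 and 426 in the dual libraries. A2A antagonist replicates 2 and 4 stood above all other libraries, and replicates 1 and 3 of that group fell among the dual ones. The group means were 464 ± 69.4 and 409 ± 16.9 (SD, n = 4 each), a log2 fold change of -0.18 (SE 0.07, 95% interval -0.33 to -0.03, adjusted p = 0.273). Without the filter on low counts Mt1 was called (adjusted p = 0.0179), while without A2A antagonist replicate 2 its log2 fold change was -0.09 (adjusted p = 0.627).

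Mt2 (ENSMUSG00000031762, chr8:94172664-94173568, plus strand) had 2.98, 2.11, 2.61 and 1.56 scaled CPM in the A2A antagonist libraries and 3.37, 2.68, 3.51 and 3.07 in the dual libraries. All 4 dual values exceeded the A2A antagonist mean, but replicate 1 of the A2A antagonist group was above replicate 2 of the dual group. The log2 fold change of 0.46 (SE 0.17, 95% interval 0.10 to 0.81, adjusted p = 0.255) was the largest of the 10 genes and rested on 71 to 161 reads per library. Mt1 collected 162 times as many reads as Mt2. Of the exonic bases of Mt2, 73.5% lie opposite the antisense gene Gm45774, which had 15 to 24 reads per library and a log2 fold change of 0.20 (SE 0.27, adjusted p = 0.816). Reads from the shared stretch cannot be assigned to either gene unless the strand was used, so the level of Mt2 is uncertain. The same holds for its difference between the groups and for its ratio to Mt1.

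**Figure D3:**
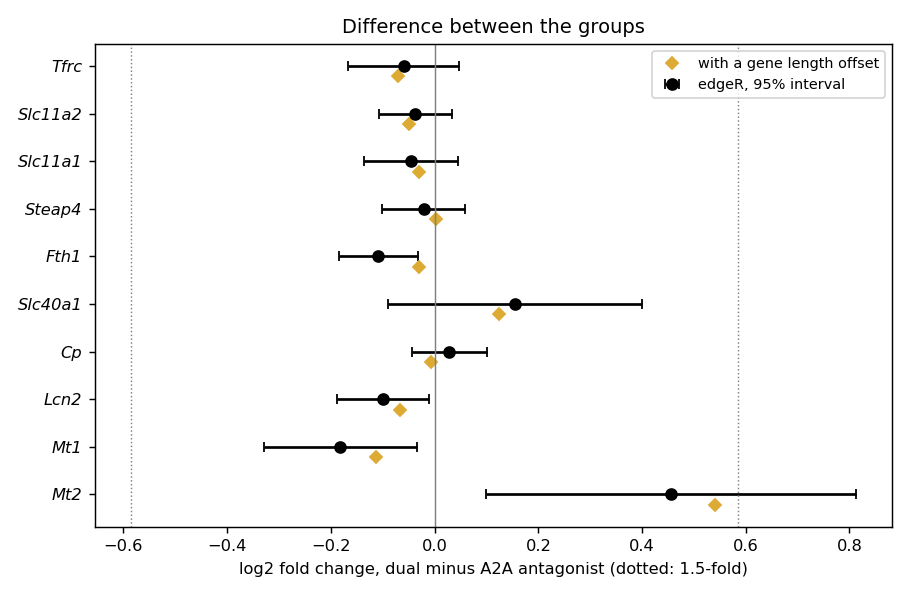
Log2 fold change of the 10 genes, dual minus A2A antagonist, with its 95% interval from edgeR (black) and the value with a gene length offset (yellow). The dotted lines mark 1.5-fold, which only the interval of Mt2 crosses. With the offset, which uses the deposited length, the Fth1 value moves from -0.11 to -0.03.

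Over the whole table the fitted difference moved with gene length. Among protein-coding genes whose log2 CPM was 3 or more, the median log2 fold change was -0.10 for the 183 genes of up to 1000 bases and 0.05 for the 1231 genes over 10000 bases. Fth1 (866 bases) and Mt1 (1246 bases) fall in the 2 shortest classes, whose medians were -0.10 and -0.07, while Cp (9566 bases) and Slc40a1 (9000 bases) are among the long ones. In the shortest class the median level of A2A antagonist replicates 2 and 4 stood 0.09 and 0.08 above the 8-library mean on the log2 scale. That of replicate 1 stood at -0.0017, and the dual libraries stood between -0.08 and -0.04. A2A antagonist replicates 2 and 4 also had the highest Mt1 and the highest Lcn2 (2623 bases), while Fth1 was highest in replicates 2 and 3 of that group. The cause of this was not tested. A fit with a gene length trend as an offset in each library was added after seeing the data. With it the log2 fold change was -0.03 for Fth1, -0.11 for Mt1 and -0.07 for Lcn2. For Fth1 this rests on the deposited length of 866 bases. Genes of 2500 to 4000 bases, the class of its 3469 bases in GENCODE, had a median of -0.03. Mt2, although the shortest of the 10 at 588 bases, did not follow the median of the short genes, and its log2 fold change was 0.54 with the offset (adjusted p = 0.262). Because 73.5% of its exonic bases overlap an antisense gene, its countable length is uncertain, and so is this value. Mt3 (1066 bases), which is not among the 10, also stood above 0, at 0.08 and at 0.15 with the offset. This fit called 0.048% of all genes and 0 of the 10, and 9.95% of all genes had an unadjusted p below 0.05. Of the 10 genes, Mt2 alone passed that threshold with the offset.

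**Figure D4:**
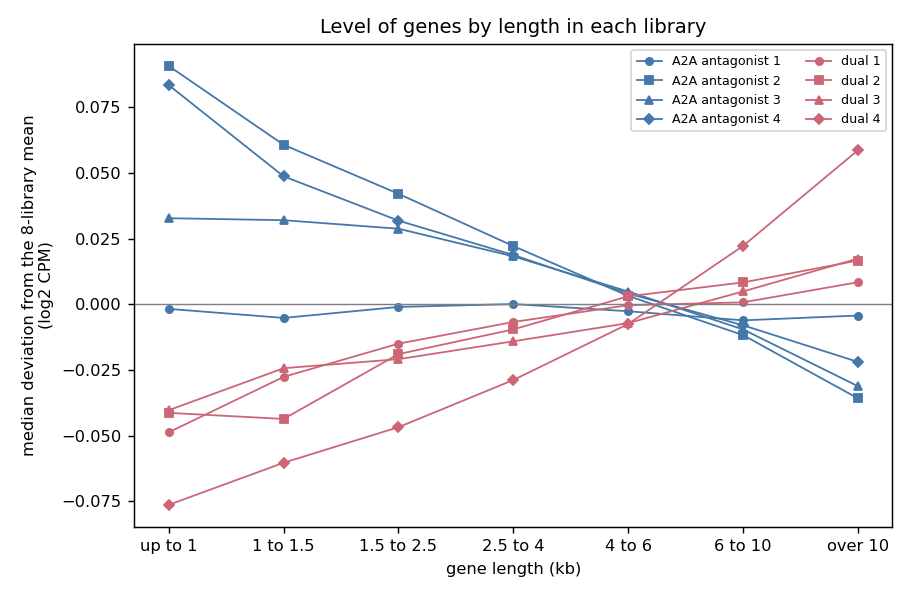
Median deviation of protein-coding genes from the 8-library mean, in log2 CPM, by gene length in kilobases, with 1 line per library. Short genes stand highest in A2A antagonist replicates 2 and 4 (0.09 and 0.08) and lowest in replicate 4 of the dual group (-0.08), while replicate 1 of the A2A antagonist group stays near 0.

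Markers of the cell types that such a culture can hold were followed beside these genes. The summed scaled CPM of the astrocyte markers was 6998 to 7280 in the A2A antagonist and 7087 to 7559 in the dual libraries. That of the fibroblast markers was 2379 to 2652 and 2369 to 2986, and 0 of the 10 astrocyte and 0 of the 6 fibroblast markers were called. The 12 microglial markers summed to 1371 to 1490 and 1307 to 1376, and 1 of them was called, C1qa, a complement subunit that fell by 0.24 on the log2 scale (SE 0.04, adjusted p = 0.0240). The median log2 fold change of the 12 was -0.05, and that of Itgam was 0.04 (adjusted p = 0.711). Of the tested oligodendrocyte, endothelial, mural, neuronal and ependymal markers (6, 4, 4, 3 and 3), 0 were called. The part of these shifts in the values of Fth1, Lcn2 and Mt1 was not tested.

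The wider network of metal genes stayed below the threshold as well. Of 80 genes in 8 lists, 72 were tested, 38 had a fitted difference above 0 and 34 below, and 0 were called. At an unadjusted p below 0.05 there were 11, the 4 named above and 7 others, beside 12.8% of all genes. With the length offset 7 of the 72 passed, beside 9.95% of all genes. The median log2 fold change of the 72 genes was 0.0026, beside 0.0038 for all genes.

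Among 13 tested genes of iron uptake, 6 had a fitted difference above 0 and 7 below, with a median of -0.01. Lrp1, a scavenger receptor that also takes up heme bound to hemopexin, had 113 FPKM and the smallest adjusted p of all 72 (log2 fold change 0.16, SE 0.05, adjusted p = 0.172). The value was 0.10 without dual replicate 1 and also 0.10 with the length offset (adjusted p = 0.589). All 5 storage genes were below 0, with a median of -0.06, while 7 of 8 export and carrier genes were above 0, with a median of 0.07 and Lcn2 as the exception, where 48.5% of all genes were below 0. With the length offset 4 of the 5 storage genes were below 0, with a median of -0.03 and Ftl1 above 0, and 6 of the 8 export and carrier genes were above 0. Of the 8 regulators tested, 7 were above 0. The most abundant of them were Nfe2l2, a transcription factor of the oxidative stress response (91.1 FPKM, log2 fold change 0.0002), and Bmp6, which induces hepcidin in the liver (54.0 FPKM, log2 fold change 0.02). The widest value of all lists was Tmprss6, a protease that restrains hepcidin, at 0.73 (SE 0.30, adjusted p = 0.301), with 13 to 33 reads per library. It was named after its values were seen.

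Heme genes divided 4 above and 5 below 0. Hmox1, which frees iron from heme, stood at 243 FPKM with a log2 fold change of 0.09 (SE 0.04, adjusted p = 0.335), and the heme transporter Slc48a1 at 81.4 FPKM with -0.04. The mitochondrial list had 2 above and 5 below 0, with the mitochondrial iron importer Slc25a37 (13.9 FPKM) at -0.02 and the iron-sulfur scaffold Iscu (27.4 FPKM) at -0.07.

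Copper genes had the lowest median, -0.08, with 4 of 11 above 0 and 7 below. The 4 with an unadjusted p below 0.05 were all lower in the dual group, as were 6.81% of all genes: Atox1, the copper chaperone of the secretory pathway, Ccs, the chaperone of superoxide dismutase, and the copper enzymes Sod1 and Sod3. Atox1 (103 FPKM, 541 bases long) had 51.4, 67.3, 53.9 and 66.2 scaled CPM in the A2A antagonist libraries and 53.0, 54.7, 52.1 and 51.8 in the dual libraries. Its high libraries, A2A antagonist replicates 2 and 4, were also those of Mt1 and Lcn2. The log2 fold change of Atox1 was -0.18 (SE 0.07, adjusted p = 0.277), and -0.09 with the length offset. With that offset Ccs (1057 bases) went from -0.12 to -0.04. Sod1 (3970 bases) went from -0.09 to -0.08 and Sod3 (3738 bases) from -0.15 to -0.13. With the offset 1 of the 11 copper genes, Sod1, had an unadjusted p below 0.05. Slc31a2, a copper transporter, stood at 63.8 FPKM with -0.08. In the list of zinc transporters and metallothioneins, 8 of 11 were above 0, with a median of 0.06. Mt3, a metallothionein of the brain, had 285 FPKM and a log2 fold change of 0.08 (adjusted p = 0.471).

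**Figure D5:**
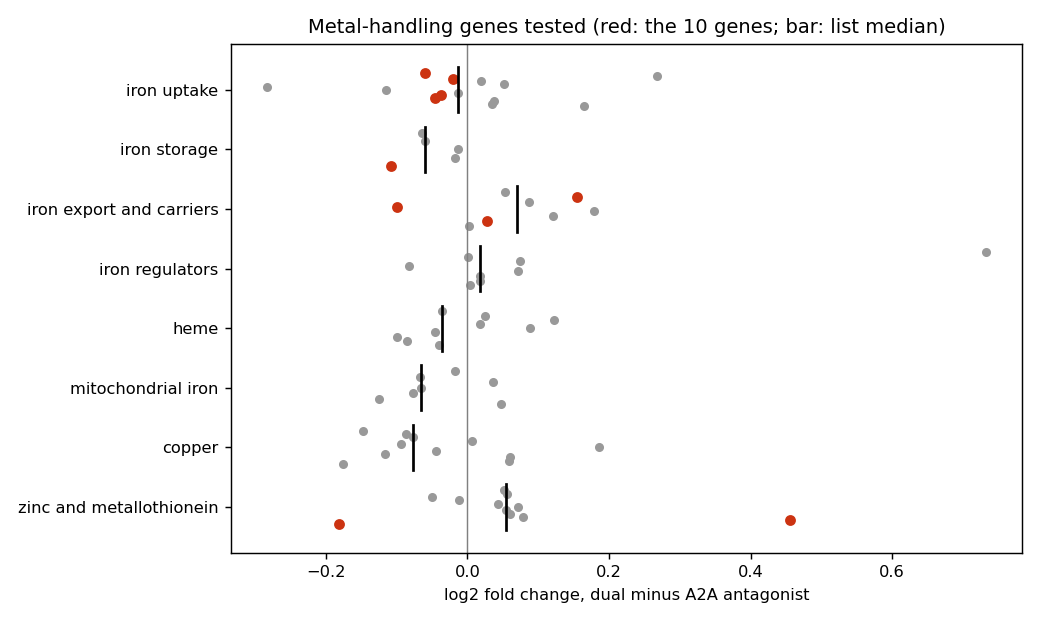
Log2 fold change, dual minus A2A antagonist, of the 72 metal-handling genes tested, by list, with the 10 genes in red, the others in grey and a bar at each list's median. The medians run from -0.08 (copper) to 0.07 (iron export and carriers), and the point at 0.73 is Tmprss6.

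Over the 8 libraries the 10 genes did not vary as 1 group. Pearson's r of log2 CPM was 0.895 between Steap4 and Tfrc, 0.755 between Slc11a2 and Tfrc and 0.750 between Cp and Tfrc. It was 0.811 between Lcn2 and Slc11a1, 0.784 between Lcn2 and Mt1, 0.743 between Lcn2 and Fth1, and -0.897 between Lcn2 and Mt2. For Mt2, whose level is uncertain, it was also -0.829 with Slc11a1 and -0.755 with Mt1. The remaining pairs had a weaker r. These values describe 8 libraries that share the groups and the trend with gene length.

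The genes most like each of the 10 by the same measure were sought among 11062 genes whose mean log2 CPM was 3 or more. The closest 3 are named. They were picked as the largest r over 8 libraries, so the selection alone raises r, and no chance level was computed. For Fth1 they were Eif3f (r = 0.985), Tomm40 and Rpl28, and for Mt1 they were Ndufb9 (r = 0.973), Atp5k and Rps29. Lcn2 was most like Gemin5 (r = 0.981), Wdr34 and Mvb12a, and Mt2 most like Dusp6 (r = 0.948), Ddx42 and Daam1. Steap4 was followed by Gm9855 (r = 0.957), Ints4 and Rnf32, and Cp by Zfp91 (r = 0.982), Sar1b and Frrs1, which encodes a ferric reductase. Closest to Tfrc were Trnt1 (r = 0.980), Snx25 and A430005L14Rik, and to Slc40a1 Gt(ROSA)26Sor (r = 0.977), Cyp26b1 and Atg4c. Slc11a1 lay nearest to Coq2 (r = 0.927), Borcs6 and Bin3, and Slc11a2 to Ifih1 (r = 0.968), Kansl2-ps and Pcna-ps2.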

How the data were processed

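RNA sequencing counts of 8 libraries of activated mouse microglia were used, 4 per group, grouped by their titles. According to the study's methods, the authors used HISAT2 to align to the mouse genome of Ensembl, and deposited raw counts per gene from featureCounts (v1.5.0-p3), besides FPKM, which they scaled to library size and gene length. Whether strand was used is not stated. The columns of 3 control libraries (9) and the authors' log2 fold changes and p-values were not used. All 10 genes were found by symbol, with the same identifier in both deposited tables (30302 shared genes, 0 differing A2A antagonist counts). Of 31389 identifiers found in GENCODE mouse release 21, 97.5% had the same coordinates, which are GRCm38. Fth1 was an exception, and its deposited coordinates are given.

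Counts were tested with edgeR 4.0.16 (quasi-likelihood F test, TMM factors, minimum count 10, R 4.3.3) over 18756 genes, called at an adjusted p below 0.05. CPM was scaled with TMM factors. Library size (32630602 to 45878639 counts) limits precision mainly for Slc40a1 and Mt2. No batch or date is given. Libraries of a group differed by more than sampling noise (chi-square per degree of freedom 3.80 to 9.43). Alternatives were other scaling, no filter, DESeq2 1.42.0, leaving out each library, a replicate block and a length offset. The 10 genes and all lists were chosen with earlier results of these data known. Named besides the 10 were the 2 genes of highest FPKM per list, any called metal gene, the 3 genes most correlated with each of the 10, and 5 marker examples. Copper genes below an unadjusted p of 0.05 and Tmprss6 were named after their values were seen.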

Additional observations from a re-analysis of the deposited data

Results flagged for a closer look

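Of 42 groups of 4 libraries examined for a library far from its group, 1 held such a library, where chance gives about 1 in 20. Hmox1, which frees iron from heme, had 471 scaled CPM in replicate 3 of the dual group, while the other 3 libraries of that group had 430 to 436. The gap to the nearest library was 0.858 of the whole range of the group, above Dixon's 95% critical value for 4 samples. Without this library the log2 fold change of Hmox1 was 0.05 (adjusted p = 0.655), against 0.09 with it, and with the length offset it was 0.14 (adjusted p = 0.159). The values of the 10 genes in replicate 3 of the dual group did not stand apart in this way.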

How the results depend on the processing

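The number of genes called over the whole table depended on the processing: 39 with the settings reported, 366 without the low-count filter, 417 with DESeq2, 17 with a replicate block, 9 with the length offset, and 0 to 172 when 1 library was left out. Leaving out A2A antagonist replicates 1, 2, 3 and 4 in turn gave 172, 5, 6 and 0 calls, and leaving out dual replicate 3 gave 0. The edgeR fits with 0 calls had 1802 and 2092 genes at an unadjusted p below 0.05. Of the 10 genes, 0 were called in the fit reported, 2 without the filter (Fth1 and Mt1) and 0 to 1 with a library left out (Fth1, without A2A antagonist replicate 1). Of the metal genes, 3 were called without the filter (with Lrp1, adjusted p = 0.00607) and 0 to 1 with a library left out. Of 294 values for 21 genes under the alternatives, 274 kept direction and side of the threshold, 4 passed it and 16 changed sign, in 5 genes whose difference was not called. The 274 include the DESeq2 values of Mt2 and Slc40a1, which kept direction but had no adjusted p. With the length offset Steap4 came to 0.0029, Cp to -0.0061 and Ftl1 to 0.046. Nfe2l2 came to -0.00025 with DESeq2 size factors, -0.0052 without the filter, -0.0021 with DESeq2 and -0.00087 with the replicate block. With 1 library left out the ranges were -0.054 to 0.018 for Steap4, -0.00076 to 0.051 for Cp, -0.042 to 0.018 for Ftl1, -0.031 to 0.022 for Nfe2l2 and -0.049 to 0.011 for Slc25a37. The cause was not tested.

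Replicate numbers did not pair the libraries (correlation of same-numbered deviations -0.0529 to 0.0408), so the block stands only as an alternative, under which 0 of the 10 genes were called. DESeq2 gave no adjusted p for Mt2 and Slc40a1. Depth limits Slc40a1 and Mt2, whose SEs were 0.12 and 0.17 on the log2 scale.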
